A study of Mus musculus with 16 samples.

Results

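The 9 genes described here handle retinoids, the vitamin A compounds, and were taken from a table of raw counts for 49315 mouse Ensembl genes as the rows named Stra6, Rbp4, Crabp1, Crabp2, Aldh1a1, Aldh1a2, Aldh1a3, Rara and Rarb. Of these, Stra6 was chosen by its measured level, which was higher on the ketogenic diet than on the standard diet in the knockout. The other 8 were added for what their products do, with earlier results of these data known. RNA was sequenced from the hippocampus of 16 mice in 4 groups of 4: wild type on a standard diet, wild type on a ketogenic diet, Kcna1 knockout on a standard diet and Kcna1 knockout on a ketogenic diet. The product of Kcna1 is part of a potassium channel, and mice without it have seizures, and a ketogenic diet is rich in fat and poor in carbohydrate. Strain, allele, age and length of feeding were not given in the sources used here, and neither was sex. The labels number the animals within each group, but nothing there says how litters or cages were arranged, so p-values measure the spread between these animals.

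Retinol travels in blood bound to retinol-binding protein, the product of Rbp4, and enters some cells through Stra6, a membrane receptor for that protein. Inside the cell dehydrogenases turn retinol into retinaldehyde, and the Aldh1a enzymes turn retinaldehyde into retinoic acid. Retinoic acid is carried by the cellular binding proteins Crabp1 and Crabp2 and binds the nuclear receptors, among them Rara and Rarb, which act on DNA together with the Rxr receptors. In the hippocampus retinoic acid is known for roles in synaptic plasticity and in the birth of granule neurons, and in the adult brain much of it is made in the meninges.

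Retinoic acid receptors bind pairs of a short hexamer set in tandem, classically with a spacer of 5 bases. The hexamers searched were AGGTCA, its relative AGTTCA, the form GGGTCA and the form GGTTCA. RefSeq promoter windows on GRCm38.p6, each of 300 bases around a transcript start, matched 7 of the 9 genes with 15 windows; Crabp2 and Aldh1a3 were the genes not matched. Both strands were searched. The Rarb window was the only 1 of the 15 with 2 hexamers in tandem at a 5-base spacing, from 53 to 37 bases before its start. Such a repeat was present in 32 of 32851 windows of all genes, or 0.0974%. Tandem hexamers with spacers of 1 or 2 bases, present in 0.222% and 0.268% of all windows, were in 0 of the 15. Lone hexamers are common, since 43.7% of all windows held at least 1. Of the Stra6 windows only the third held a hexamer, AGTTCA from 16 to 21 bases after the start, and Rara had 5 hexamers in 2 of its 4 windows. The 100 bases before the start are printed below for Stra6, the uptake receptor, for Rbp4 and Aldh1a1, each of which had 1 hexamer in that stretch of 1 of its 2 windows and none in the other window, and for Rarb, with hexamers on either strand in capitals. They lie at chr9:58128988-58129087 on the plus strand for the first of 4 Stra6 starts, chr19:38125322-38125421 on the minus strand for the second of 2 Rbp4 starts, chr19:20601868-20601967 on the plus strand for the second of 2 Aldh1a1 starts and chr14:16575477-16575576 on the minus strand for Rarb. A match describes letters in a window and is not evidence of a bound site.
Stra6 upstream: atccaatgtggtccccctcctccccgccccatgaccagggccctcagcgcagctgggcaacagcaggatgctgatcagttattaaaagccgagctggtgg
Rbp4 upstream: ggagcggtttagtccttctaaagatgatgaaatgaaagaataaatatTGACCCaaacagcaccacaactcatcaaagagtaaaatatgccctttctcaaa
Aldh1a1 upstream: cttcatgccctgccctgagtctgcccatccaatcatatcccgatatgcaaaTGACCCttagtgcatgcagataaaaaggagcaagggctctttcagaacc
Rarb upstream: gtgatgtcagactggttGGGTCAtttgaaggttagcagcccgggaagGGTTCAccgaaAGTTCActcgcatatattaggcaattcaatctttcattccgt

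Facts of the whole set of libraries that touch these genes come first. Total counts ranged from 13440230 to 22309504 per library, and 8 of the 9 genes passed the filter on low counts among 17469 tested. Markers of the labelled tissue were present: the 8 hippocampal genes listed (Prox1, Wfs1, Fibcd1, Spink8, Neurod6, Lct, C1ql2 and Dsp) were counted in every library and summed to between 590 and 1110 CPM, the counts scaled to a common effective library size. KC888LL, labelled knockout on the standard diet, went against its label in part, with Kcna1 at 82.0 CPM against 44.6 to 47.0 CPM in the other 3 libraries of its group and 107 to 130 CPM in the 8 wild type libraries. The main results that rest on that group are therefore given with and without it. Xist, which marks libraries from females, was at 4.43 and 5.48 CPM in KC872RL and KC873RR of that group, at 41.1 CPM in KC890RL (wild type, standard diet) and at 8.84 CPM in KC846L (wild type, ketogenic diet), and was at 730 CPM or more in the other 12.

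Levels of different genes are compared per kilobase of exon. Aldh1a1 was the most abundant, at 8.87 ± 2.19 CPM per kilobase (SD, n = 16), followed by Rara at 4.00 ± 1.59 and Rbp4 at 3.12 ± 0.990. Stra6 stood at 2.54 ± 0.666, Aldh1a2 at 1.25 ± 0.433 and Rarb at 1.02 ± 0.136 CPM per kilobase. Crabp2, Crabp1 and Aldh1a3 were lowest, at 0.430 ± 0.176, 0.300 ± 0.245 and 0.266 ± 0.158. The ranges of every pair of neighbours in this order overlapped, and the order of the group means was not the same in each group. Stra6 was above Rbp4 on the ketogenic diet, at 2.70 against 2.38 CPM per kilobase in wild type and 3.22 against 3.04 in the knockout, and Rbp4 at 4.17 was above Rara at 2.72 in the knockout on the standard diet. Exon length is the union of all annotated exons, which lowers the value of genes with many rarely used exons.

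**Figure D1:**
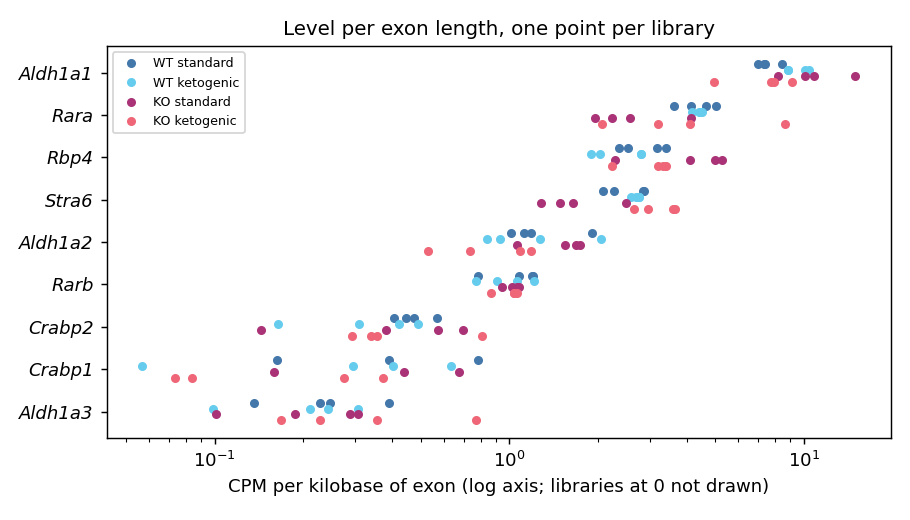
CPM per kilobase of exon on a log axis for the 9 genes in order of their mean, with 1 point per library coloured by group. Aldh1a1 lies between 4.96 and 14.9, Stra6 between 1.29 and 3.66, and Crabp1, at 0 in 2 libraries that are not drawn, does not pass 0.78.

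Stra6 (ENSMUSG00000032327, chromosome 9, 58063788 to 58153996, plus strand, GRCm38), the retinol uptake receptor, was measured first. In wild type on the standard diet it stood at 13.2, 16.6, 16.7 and 12.1 CPM, and in wild type on the ketogenic diet at 15.1, 15.7, 16.1 and 16.1 CPM. The 2 sets overlapped. In the knockout on the standard diet KC872RL, KC873RR and KC893RL gave 7.49, 8.68 and 9.58 CPM, below each of the 8 wild type libraries, while KC888LL at 14.5 CPM lay among them. In the knockout on the ketogenic diet the values were 15.5, 20.9, 17.3 and 21.3 CPM, each above every knockout library on the standard diet. Of the 3 low libraries, KC872RL and KC873RR had low Xist and KC893RL had Xist at 785 CPM. The part of sex in these levels was not tested apart from the covariate fit given next.

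The contrast that chose Stra6, ketogenic against standard diet in the knockout, is given as a description. The mean was 10.1 ± 3.08 CPM on the standard diet and 18.8 ± 2.84 CPM on the ketogenic diet (SD, n = 4 each), a fitted difference of 0.90 on the log2 scale with SE 0.17. Without KC888LL the standard-diet mean was 8.59 ± 1.05 CPM (SD, n = 3) and the difference was 1.13 with SE 0.14. With Xist as a covariate it was 0.75, without KC872RL 0.78, without KC873RR 0.84 and with only the groups compared 0.89, and in these 4 of 16 alternatives it was not past the threshold. The comparisons with wild type share the same knockout libraries and are descriptions as well. On the standard diet the knockout lay 0.54 below wild type (SE 0.17), or 0.78 below it (SE 0.14) without KC888LL. On the ketogenic diet it lay 0.25 above wild type (SE 0.16).

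The diet in wild type compares none of the libraries on which Stra6 was chosen and can be tested. The main edgeR fit, though, takes its spread from all 16 libraries, those of the knockout among them. The mean was 14.6 ± 2.35 CPM on the standard diet and 15.7 ± 0.471 CPM on the ketogenic diet (SD, n = 4 each). The log2 difference was 0.11 with SE 0.16 and an approximate 95% interval from -0.25 to 0.46 (edgeR, adjusted p = 0.998). With only the groups compared, a fit without the knockout libraries, it was 0.11 (edgeR, adjusted p = 0.831). A two-sided exact permutation test of mean log2 CPM over 70 arrangements gave p = 0.429, where 0.0286 is the smallest it allows. The interaction term, which shares those knockout libraries, was 0.79 with SE 0.23, and 1.03 with SE 0.18 without KC888LL. Interactions were called in 0% of all 17469 genes, and 7.48% had an unadjusted p under 0.05.

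**Figure D2:**
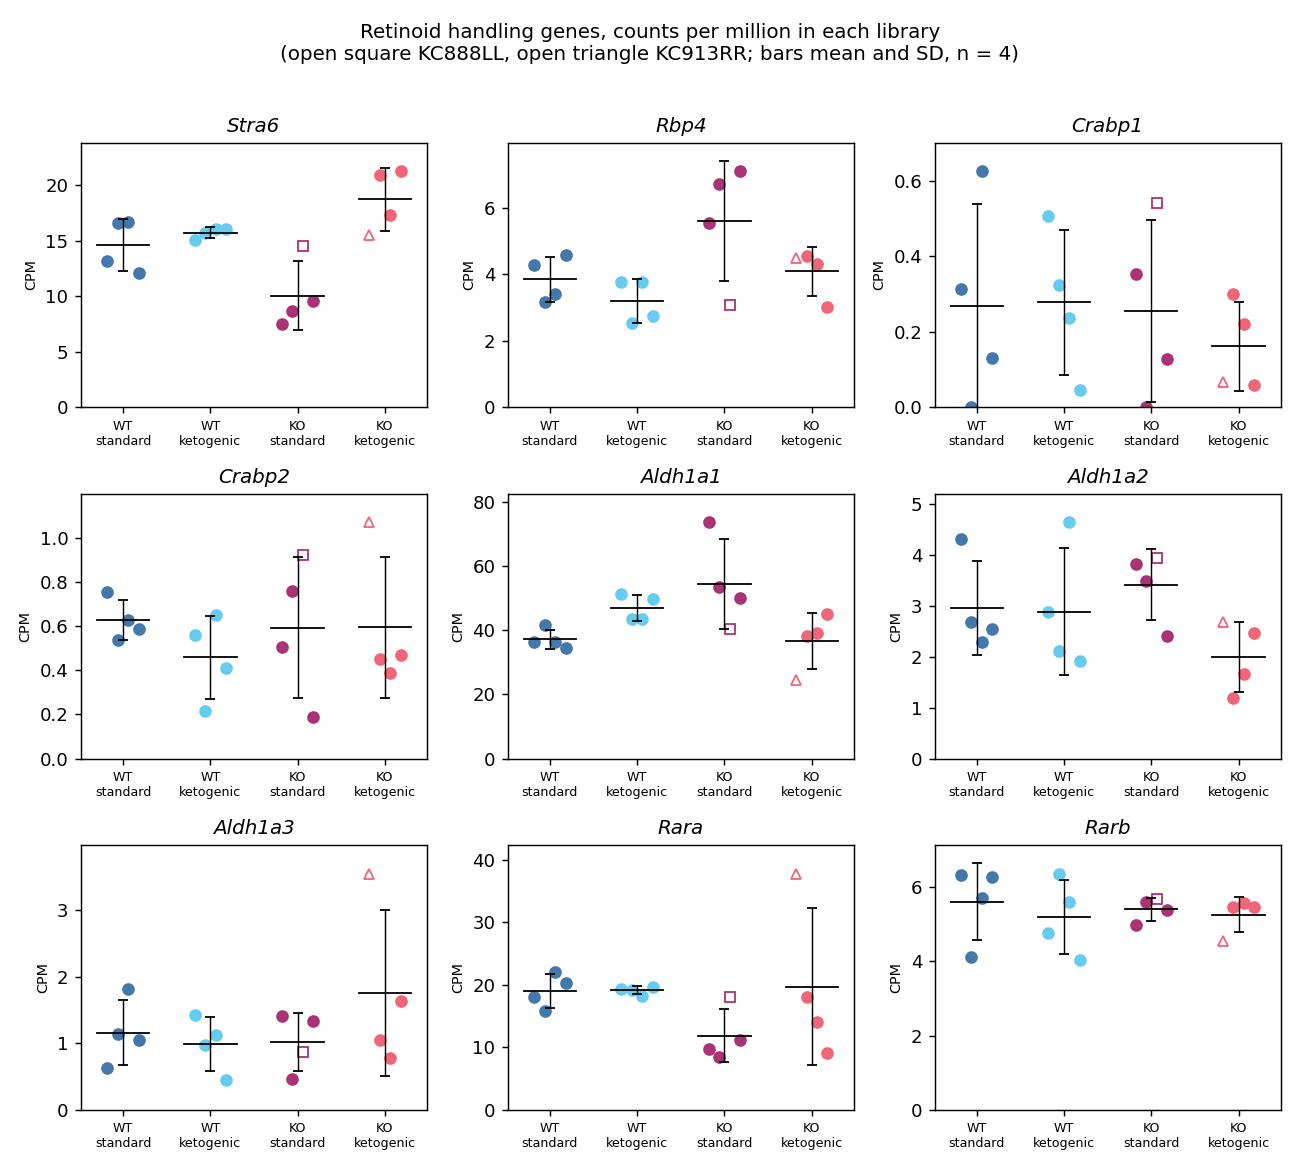
CPM of the 9 genes in each of the 16 libraries by group, with linear axes from 0 and bars for the mean and SD of 4 libraries. For Stra6, Rbp4 and Rara the open square of KC888LL sits with wild type and apart from the other 3 knockout libraries on the standard diet, and for Crabp2, Aldh1a3 and Rara the open triangle of KC913RR is the highest of all 16.

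Rbp4 (ENSMUSG00000024990, chromosome 19, 38116629 to 38125281, minus strand), the carrier of retinol, had the opposite order of levels in the knockout on the standard diet. KC872RL, KC873RR and KC893RL gave 5.53, 6.70 and 7.10 CPM and KC888LL 3.08 CPM. The 8 wild type libraries lay between 2.54 and 4.57 CPM, so 3 of the 4 knockout libraries were above them all and KC888LL was within their range. In the knockout on the ketogenic diet Rbp4 was at 4.48, 4.56, 4.31 and 3.00 CPM, within the wild type range. On the standard diet the genotypes differed by 0.53 on the log2 scale with SE 0.23 (edgeR, adjusted p = 0.305). It was 0.73 with SE 0.20 without KC888LL (adjusted p = 0.0374). When Xist was also fitted it was 0.82 and not called (adjusted p = 0.0759). The diet difference in the knockout, a description, was -0.45 with SE 0.23, or -0.65 with SE 0.20 without KC888LL. The diet difference in wild type was -0.27 with SE 0.24 (adjusted p = 0.990), and that between genotypes on the ketogenic diet was 0.35 with SE 0.24 (adjusted p = 0.670).

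Aldh1a1 (ENSMUSG00000053279, chromosome 19, 20492715 to 20643465, plus strand), the most abundant of the enzymes that make retinoic acid, had fitted diet differences of opposite sign in the 2 genotypes. In wild type it was at 36.4, 41.5, 36.3 and 34.4 CPM on the standard diet and at 51.3, 43.5, 43.6 and 49.7 CPM on the ketogenic diet. These groups did not overlap, which held for 1 of the 8 tested genes of this list and for 4.88% of all genes. The log2 difference was 0.34 with SE 0.18 (edgeR, adjusted p = 0.939). Knockout values were 73.6, 53.3, 40.4 and 50.0 CPM on the standard diet, with KC888LL lowest, and at 24.5, 38.2, 39.2 and 45.0 CPM on the ketogenic diet, with KC913RR lowest. In the knockout, then, the ketogenic mean was the lower one, by a log2 difference of -0.56 with SE 0.18, while in wild type it was the higher one. Without KC888LL that difference was -0.68 with SE 0.17. It lies in the contrast that chose Stra6 and is a description. Aldh1a1 was not called there with all 16 libraries, and it was past the threshold in 2 of 16 alternatives, without KC888LL (where 6.18% of all genes were called) and with DESeq2. The difference between these diet responses was -0.91 with SE 0.25 and did not pass the test over all genes (adjusted p = 0.654), nor did the -1.02 with SE 0.23 without KC888LL (adjusted p = 0.144). Between genotypes the log2 difference was 0.55 with SE 0.18 on the standard diet (adjusted p = 0.210) and -0.36 with SE 0.18 on the ketogenic diet (adjusted p = 0.566), the latter being -0.20 without KC913RR. The former was 0.66 with SE 0.17 without KC888LL (adjusted p = 0.0370), and 0.55 when Xist was also fitted as a covariate (adjusted p = 0.177).

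The other 2 synthesis enzymes were scarcer. Aldh1a2 (ENSMUSG00000013584, chromosome 9, 71215789 to 71296243, plus strand), known from the meninges, was at 3.82, 3.50, 3.95 and 2.41 CPM in the knockout on the standard diet and at 2.68, 1.20, 1.66 and 2.47 CPM on the ketogenic diet. The sets overlapped through KC893RL at 2.41 CPM, and the fitted log2 difference was -0.77 with SE 0.30, or -0.69 with SE 0.33 without KC888LL. In wild type the means were 2.97 ± 0.926 and 2.89 ± 1.25 CPM (SD, n = 4 each), with a log2 difference of -0.05 and SE 0.30 (edgeR, adjusted p = 0.998). That value had no stable sign, at -0.37 without KC844RR and 0.19 without KC890RL. The 8 listed markers of meningeal fibroblasts, all detected, summed to 113 to 151 CPM in the knockout on the standard diet and to 62.4 to 104 CPM on the ketogenic diet, against 71.2 to 147 and 57.7 to 129 CPM in wild type. The medians on the standard and ketogenic diet were 122 and 94.9 CPM in the knockout and 129 and 80.3 CPM in wild type. Over the 16 libraries the meningeal sum had Pearson's r of 0.44 with Aldh1a2. That was below the blood (0.61), oligodendrocyte (0.49) and endothelial (0.46) lists and above the rest. The part of the meningeal markers in the Aldh1a2 difference was not tested. In tissue pieces like these, fewer cells of a type and less RNA per cell cannot be told apart.

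Aldh1a3 (ENSMUSG00000015134, chromosome 7, 66390890 to 66427517, minus strand) ranged from 0.455 to 1.81 CPM in 15 libraries, and KC913RR, a knockout on the ketogenic diet, stood at 3.55 CPM. With that library the log2 difference was 0.77 (SE 0.46) for the diet in the knockout and 0.82 (SE 0.46) between genotypes on the ketogenic diet, for the latter with adjusted p = 0.598 by edgeR. Without it the 2 values were 0.18 and 0.23.

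The binding proteins inside the cell were near the limit of counting. Crabp1 (ENSMUSG00000032291, chromosome 9, 54764748 to 54773110, plus strand) had 66 counts over all 16 libraries, from 0 to 0.626 CPM, and was not tested. It was at 0 counts in KC894RLL and KC873RR, which allows up to 0.202 and 0.175 CPM at 3 counts. Crabp2 (ENSMUSG00000004885, chromosome 3, 87948666 to 87953376, plus strand) had 153 counts in all and ranged from 0.190 to 1.07 CPM. Its 4 pairwise log2 differences lay between -0.46 and 0.36 with SE of 0.44 or 0.45, and none of those tested was called. The 0.36, for genotype on the ketogenic diet, was -0.07 without KC913RR, and the -0.46, for the diet in wild type, was -0.23 without KC843RL. Without KC888LL the difference moved from -0.07 to -0.36 for genotype on the standard diet. For the diet in the knockout it moved from -0.02 to 0.27 without KC888LL, and to -0.46 without KC913RR. The approximate 95% interval for genotype on the standard diet, from -1.03 to 0.89, shows how wide these estimates are.

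Rara (ENSMUSG00000037992, chromosome 11, 98927818 to 98974942, plus strand), a retinoic acid receptor, was tight in wild type and wide in the knockout. Wild type libraries lay between 15.8 and 22.0 CPM. In the knockout on the standard diet KC872RL, KC873RR and KC893RL gave 9.71, 8.51 and 11.2 CPM, below every wild type library, and KC888LL gave 18.1 CPM. On the ketogenic diet the knockout libraries KC913RR, KC916RRL, KC934R and KC935LL were at 37.8, 18, 14.0 and 9.04 CPM, the widest spread of any group. The group means were 11.9 ± 4.30 CPM in the knockout on the standard diet and 19.7 ± 12.6 CPM on the ketogenic diet (SD, n = 4 each). Their log2 difference of 0.72 (SE 0.35) became 0.19 without KC913RR and 1.00 (SE 0.37) without KC888LL. Against wild type the knockout differed by -0.68 with SE 0.35 when fed the standard diet (edgeR, adjusted p = 0.406) and by 0.04 with SE 0.34 on the ketogenic diet (adjusted p = 0.981). Without KC913RR the latter was -0.49, and without KC888LL the former was -0.96 with SE 0.37 and not called (edgeR, adjusted p = 0.15). The diet difference in wild type was 0.01 with SE 0.34 (adjusted p = 1.00).

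Rarb (ENSMUSG00000017491, chromosome 14, 16430839 to 16819156, minus strand), the receptor gene with the tandem hexamers printed above, was the steadiest. It ranged from 4.05 to 6.37 CPM over all 16 libraries, with group means of 5.61 ± 1.04, 5.20 ± 1.00, 5.41 ± 0.312 and 5.26 ± 0.479 CPM (SD, n = 4 each) in the order wild type standard, wild type ketogenic, knockout standard and knockout ketogenic. The groups overlapped in every comparison. Log2 differences lay between -0.11 and 0.02 with SE 0.16 (edgeR, adjusted p = 0.998 for the diet in wild type, 0.915 and 0.974 for genotype on the standard and ketogenic diet). Of its exon bases 34.1% are shared with Top2b on the opposite strand, which ran at 128 to 185 CPM. Whether the counting used strand was not given in the sources used here, so reads of the shared exons cannot be told apart. No exon of another gene overlaps those of the remaining 8.

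Over all 8 tested genes of the list, the diet in wild type gave 0 calls at an adjusted p under 0.05, where 0.0114% of all genes were called, and 0 of the 8 at an unadjusted p under that value, against 5.46% of all genes. The genotype contrast on the standard diet gave 0 calls, against 0.00572% of all genes, and on the ketogenic diet 0 calls, against 0.0172%. In these 2 comparisons 0 of 8 genes had groups that did not overlap, against 5.86% and 3.98% of all genes. At an unadjusted p under 0.05 there were 3 and 0 of the 8, beside 14.3% and 9.22% of all genes. The 3 were Stra6, Rbp4 and Aldh1a1, and Stra6 counts for nothing there, since its choice used the same knockout libraries on the standard diet. Ketogenic against standard diet in the knockout gave 1 call and 1 gene without overlap, both Stra6, which that contrast chose, beside 1.16% and 6.39% of all genes. Without KC888LL the genotype contrast on the standard diet gave 3 calls among the 8, namely Stra6 lower, Rbp4 higher and Aldh1a1 higher, where 5.73% of all 17725 genes were called. The rule did not use Rbp4 and Aldh1a1, but their calls rest on the same knockout libraries on the standard diet. All members were chosen with earlier results of these data known. Neither Rbp4 nor Aldh1a1 was called when Xist was also fitted. The median log2 difference of the 8 was -0.08, -0.06, 0.14 and -0.03 for the diet in wild type, genotype on the standard diet, genotype on the ketogenic diet and the diet in the knockout, beside medians of 0, 0, 0 and 0.01 over all genes.

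**Figure D3:**
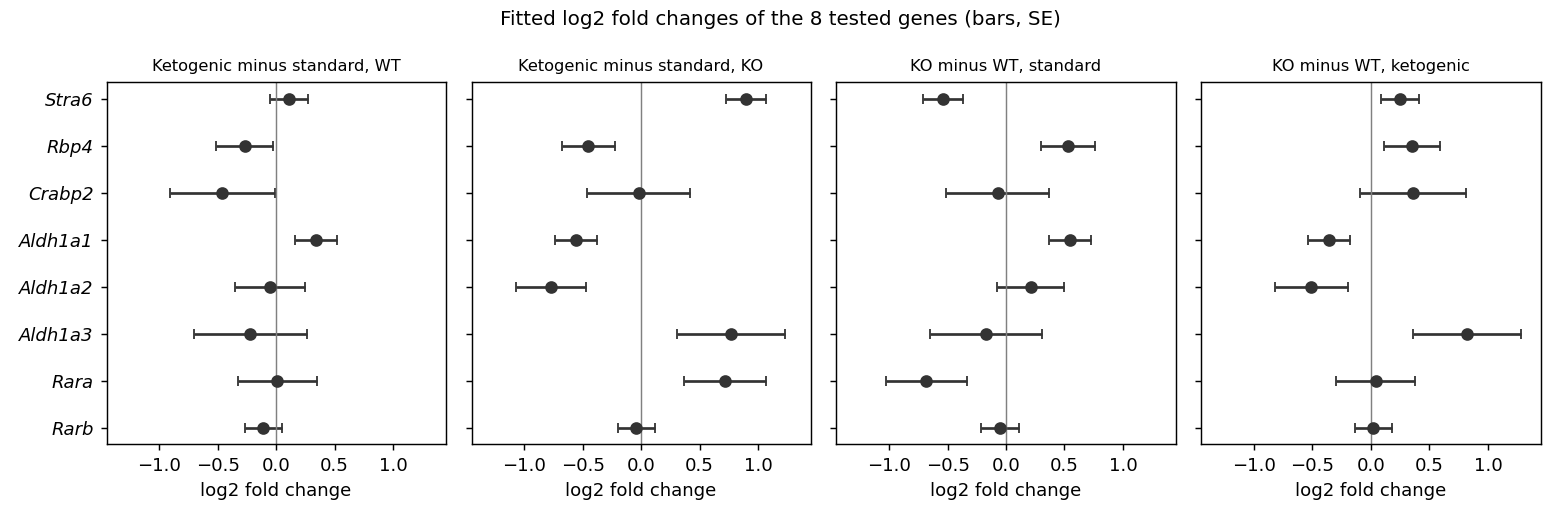
Fitted log2 differences with SE for the 8 tested genes in the 4 pairwise contrasts. In wild type the diet values lie between -0.46 and 0.34, while in the knockout Stra6 is at 0.90 and Aldh1a2 at -0.77.

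**Figure D4:**
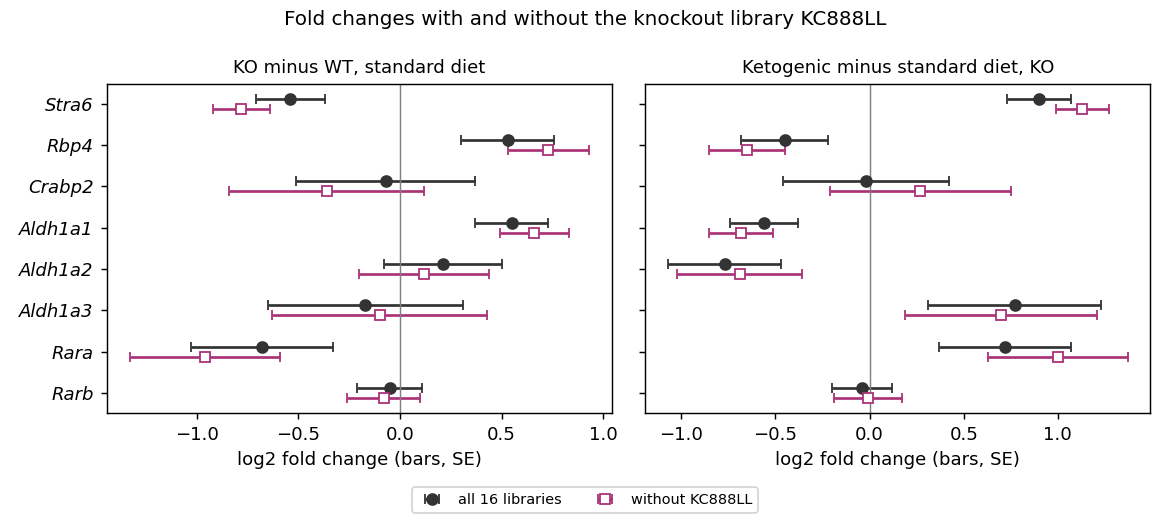
Log2 differences with SE for the 8 tested genes from all 16 libraries (filled circles) and without KC888LL (open squares). On the standard diet Stra6 moves from -0.54 to -0.78, Rbp4 from 0.53 to 0.73 and Rara from -0.68 to -0.96, while Rarb moves from -0.05 to -0.08.

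Other genes of the pathway were taken from a list of 42, of which 29 passed the filter. By role, the tested genes included Ttr and Lrp2 in transport, enzymes that convert retinol and retinaldehyde such as Rdh10, Rdh11 and Dhrs3, the breakdown enzyme Cyp26b1, the receptors Rarg, Rxra, Rxrb and Rxrg, and genes known for induction by retinoic acid such as Tgm2. With all 16 libraries edgeR called 0 of the 29 in any contrast, and at an unadjusted p under 0.05 there were 0, 4, 3 and 4 of the 29 in the order used above, beside 5.46%, 14.3%, 9.22% and 16.9% of all genes; their median log2 difference was -0.02, -0.01, -0.06 and -0.04.

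Tgm2, a transglutaminase and a classical retinoic acid target, had the smallest p of the list for genotype on the standard diet. It was at 14.7, 12.7, 8.60 and 12.6 CPM in KC872RL, KC873RR, KC888LL and KC893RL and at 7.54 to 8.30 CPM in wild type on that diet. All 4 knockout libraries lay above the wild type ones, KC888LL by the least. Groups did not overlap in that contrast for 1 of the 29 genes and for 5.86% of all genes. The log2 difference was 0.59 with SE 0.14 (edgeR, adjusted p = 0.192), and 0.72 with SE 0.11 without KC888LL (adjusted p = 0.00234). On the ketogenic diet the knockout was at 8.40 to 9.23 CPM, a log2 difference from the standard diet of -0.48 with SE 0.13 (adjusted p = 0.0885), and of -0.61 without KC888LL (adjusted p = 0.00499), where 6.18% of all genes were called. Dhrs3, which reduces retinaldehyde back to retinol, was at 19.3, 21.9, 13.2 and 20.5 CPM in the same 4 knockout libraries and at 8.83, 14.2, 13.7 and 15.4 CPM on the ketogenic diet, and KC888LL again stood with the latter. Its diet difference was -0.52 with SE 0.17 (adjusted p = 0.133), and -0.65 without KC888LL (adjusted p = 0.0196). Without that library 1 of the 29 was called for genotype on the standard diet, where 5.73% of all genes were, and 2 of the 29 for the diet in the knockout, where 6.18% were, so these counts are near the background.

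The remaining genes named by the smallest p in a contrast were Bhlhe40, a transcription factor of the clock, at -0.53 (SE 0.23, adjusted p = 0.328) for genotype on the standard diet, and Rdh11, a retinaldehyde reductase, at 0.32 (SE 0.10, adjusted p = 0.417) for genotype on the ketogenic diet. Fabp5, a carrier that can take retinoic acid to other receptors, was at 0.31 (SE 0.12, adjusted p = 0.448) in that contrast and at -0.20 (SE 0.12, adjusted p = 0.951) for the diet in wild type. Knockout libraries on the ketogenic diet gave 37.5, 29.7, 48 and 31.5 CPM, with KC934R highest, against 28.4 to 31.6 CPM in wild type. Rxrg, a partner receptor, was at -0.55 (SE 0.31, adjusted p = 0.951) for the diet in wild type. None of these 4 passed the test.

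Summed marker levels differed among the knockout libraries, and only some of the lists separated KC888LL from the other 3 on the standard diet. In KC872RL, KC873RR and KC893RL the hippocampal list summed to 590, 629 and 603 CPM, the lowest 3 of 16, and in KC888LL to 809 CPM. The choroid plexus list, led by the retinol-binding partner Ttr, summed to 372, 197 and 568 CPM in those 3 and to 50.5 CPM in KC888LL. Over the 4 groups it ranged from 36.0 to 1100 CPM in wild type on the standard diet, 32.5 to 1060 in wild type on the ketogenic diet, 50.5 to 568 in the knockout on the standard diet and 33.8 to 55.9 in the knockout on the ketogenic diet, with all 8 markers detected but Folr1 and Kcnj13 at 0 in some library. The astrocyte list of 5 genes was at 3810, 2750 and 1680 CPM in KC872RL, KC873RR and KC893RL against 1390 CPM in KC888LL and 1280 to 1500 CPM in wild type. On the ketogenic diet the knockout libraries gave 2920 CPM in KC913RR, 1260 in KC916RRL, 2190 in KC934R and 1240 in KC935LL. Gfap varied most within the astrocyte list, from 288 to 2330 CPM over the 16 libraries. Slc1a3 ranged from 483 to 733, Gja1 from 126 to 392, Aqp4 from 107 to 387 and Aldh1l1 from 37 to 57.4 CPM. The microglia list of 4 genes was at 289, 276 and 150 CPM, against 153 CPM in KC888LL and 145 to 171 CPM in wild type. In the ketogenic knockout group it was at 132 to 143 CPM, below every other library, and the hippocampal list was at 711 to 887 CPM. Over the 16 libraries the microglia sum and Stra6 had Pearson's r of -0.83 and Spearman's rho of -0.74, the strongest of the 11 marker lists for Stra6, as a description of libraries that share these groups. The oligodendrocyte list of 5 genes lay between 4500 and 5010 CPM in all 4 knockout libraries on the standard diet, and between 1770 and 3310 CPM on the ketogenic diet, against 3690 to 5730 and 3060 to 3880 CPM in wild type on the same diets. The blood list of 5 genes, with Hba-a2 at 0 in some library, was at 65.8 to 113 CPM in the knockout on the standard diet and at 17.4 to 32.5 CPM on the ketogenic diet, against 62.7 to 77.6 and 42.7 to 105 CPM in wild type. The striatum list of 5 genes was at 32.3 to 39.1 and 20.0 to 43.4 CPM in these knockout groups, against 17.2 to 31.1 and 18.4 to 20.0 CPM in wild type. The part of these markers in the retinoid gene differences was not tested.

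Genes whose pattern was most like that of Stra6 were ranked by Pearson's r of log2 CPM over the 16 libraries among 15420 genes with a mean of at least 1 CPM. The 5 highest were Unc79 at 0.955, Nos1ap at 0.903, Spink8 at 0.896, Dbn1 at 0.890 and Dscaml1 at 0.885. These values are the largest of many and serve as a description without a test. Spearman's rho for the same 5 genes was 0.703 to 0.776, and the 5 highest by rho were 5 other genes. With group means removed r was 0.919 for Unc79, 0.724 for Nos1ap, 0.856 for Spink8, 0.707 for Dbn1 and 0.896 for Dscaml1. By that measure they ranked 5, 237, 16, 296 and 9, so only Unc79 stayed among the 5 highest. Spink8, which is also on the hippocampal marker list, measured 7.29 ± 1.79 CPM in the knockout on the standard diet and 11.1 ± 1.54 CPM on the ketogenic diet, against 9.20 ± 0.825 and 11.8 ± 0.630 CPM in wild type (SD, n = 4 each). Among the listed retinoid genes Rara ranked 2822 with r of 0.419, but with rho of 0.106 and with r of 0.042 once group means were removed, and Rbp4 was near the opposite end, ranked 15014 with r of -0.702.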

How the data were processed

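RNA-seq counts of 16 hippocampal libraries were analysed. The authors deposited 1 table of raw counts per gene with no normalization. The submitters' processing notes name the build mm10 and DESeq2, while aligner, counting program, annotation, strand setting and filters are not given in the sources used here. Column names hold an animal tag plus genotype and diet, which set the group. Positions and exon lengths are those of GENCODE M21 (GRCm38), which held 48970 of the 49315 identifiers.

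Genes were filtered with filterByExpr, which left 17469, scaled with TMM factors and fitted with edgeR 4.0.16 in R 4.3.3 (robust quasi-likelihood, 1 coefficient per group, 12 residual degrees of freedom). Two-sided p-values were adjusted by Benjamini-Hochberg over all tested genes, with calls under 0.05. SE came from the F statistic and intervals from SE and the residual degrees of freedom. CPM used effective library sizes, and log2 CPM a prior count of 2. The floor for a count of 0 is 3 counts and covers counting error only. The fit was tested on simulated data. The members, the 42 pathway genes and the marker lists were chosen with earlier results of these data known. All 9 members were named whatever their values, other pathway genes when called or, failing that, as the 2 of smallest p per contrast, and 5 genes most like Stra6. Genes with shared exons are uncertain.

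The alternatives tried were scaling by size factors from DESeq2 or by upper quartiles, leaving out the filter, DESeq2 1.42.0, limma-voom (limma 3.58.1), fitting only the groups compared, an Xist covariate, and leaving out each library in turn. KC888LL left out together with the Xist covariate was added after seeing the data.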

Additional observations from a re-analysis of the deposited data

Results flagged for a closer look

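In 3 of 36 sets of 4 libraries (9 genes in 4 groups) 1 library lay far from the other 3, measured by its gap to the nearest library over the whole range; chance alone gives about 5% of sets, or 1.8 here. All 3 were in the knockout on the ketogenic diet. KC935LL was low for Rbp4, at 3.00 CPM with a ratio of 0.839. KC913RR was high for Crabp2, at 1.07 CPM with a ratio of 0.878, and low for Rarb, at 4.55 CPM with a ratio of 0.882. Top2b, which shares exons with Rarb, was at 185 CPM in KC913RR, the highest of all 16. The cause of these values was not tested.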

How the results depend on the processing

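No paired analysis was possible, since the groups hold different mice and no litter, cage or other link between them is given. The number of retinoid genes called stayed at 0 under every alternative for the diet in wild type, genotype on the ketogenic diet and the interaction. For genotype on the standard diet it ranged from 0 to 3 over the fits that left out 1 library, with 3 without KC888LL (1016 of all genes called), and was 1, Stra6, without KC888LL and with the Xist covariate (288). For the diet in the knockout, where it was 1, it was 2 with DESeq2 (677 of all genes) and without KC888LL (1096), Aldh1a1 being added, 0 with the Xist covariate (7), 0 with only the groups compared (9), and 0 to 2 over the fits that left out 1 library, with 0 without KC872RL (28) or KC873RR (46). Over all genes the calls ranged from 7 to 1096 in that contrast (202 with all libraries), from 0 to 1016 for genotype on the standard diet (1), from 1 to 45 for genotype on the ketogenic diet (3), from 0 to 12 for the diet in wild type (2) and from 0 to 7 for the interaction (0). Stra6 differences stayed between 0.75 and 1.13 for the diet in the knockout and between 0.02 and 0.17 for the diet in wild type. The causes of these changes were not tested. Crabp1, Crabp2 and Aldh1a3 had the fewest counts, which limits their precision.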

Other observations

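Extremes were not spread evenly over the libraries. KC913RR was the highest or lowest of all 16 for 4 of the 9 genes: highest for Crabp2, Aldh1a3 and Rara and lowest for Aldh1a1. No other library held more than 2 extremes, and KC888LL held 0. Cyp26b1, which breaks down retinoic acid, ranged from 16 to 20.9 CPM in wild type on the standard diet, 10.8 to 27.3 in wild type on the ketogenic diet, 9.26 to 20.7 in the knockout on the standard diet and 8.12 to 17.8 in the knockout on the ketogenic diet. Cyp26b1 was singled out after its values were seen.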
